A study of Mus musculus with 13 samples.

Results

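Foxd1, Tbx18, Meis1, Meis2, Twist1 and Ebf1, which encode transcription factors of the kidney stroma, and Pdgfra and Pdgfrb, which encode the receptors for platelet-derived growth factor (PDGF), were followed in the open chromatin of single nuclei from newborn and adult mouse kidneys. These 8 genes, of 21884 protein-coding genes of the annotation, were chosen by name. A peak was assigned to a gene when it overlapped the gene body or the 2 kb upstream of the gene start (window peaks), or when it lay outside this window and within 50 kb of the gene (distal peaks). This gave 204 window peaks and 129 distal peaks, together 333 of the 300755 peaks in the deposited list. Of the 38 distal peaks of Pdgfrb, 29 also lay in the window of another protein-coding gene, as did 4 of the 19 distal peaks of Foxd1 and 1 of the 9 of Twist1. Positions are on the mm10 build.

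Nuclei of whole kidneys were profiled by single-nucleus ATAC-seq (snATAC-seq), in which a transposase cuts and tags open chromatin, with 2 samples taken at postnatal day 0 (P0), 1 at day 21 (P21) and another 2 at day 56 (P56). The P21 and P56 mice, 3 and 8 weeks old, form the adult group, and the labels name no treatment, allele or transgene in any sample. The strain of the snATAC-seq mice, and whether the samples came from separate animals, are not given in the sources used here, so the p-values measure only the spread between these samples. The authors named 13 main clusters from marker genes, among them stroma 1 with 1479 and stroma 2 with 3539 of the 28316 nuclei. A peak is either open or closed in a nucleus, and its level is given as the share of nuclei in which it is open. The level of a gene, its window accessibility, is the open calls in its window peaks as counts per 1000000 (CPM) of all open calls of the same cluster and sample. Because the 8 genes are 2159 to 390775 bp long, levels are compared between clusters and stages and not between genes.

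The kidney stroma holds fibroblasts, pericytes, mesangial cells and smooth muscle, which largely descend from progenitors that express Foxd1. Tbx18 marks the mesenchyme around the ureter, Meis1 and Meis2 are homeodomain proteins that bind DNA together with Pbx and Hox proteins, Twist1 is a basic helix-loop-helix factor of mesenchymal cells, and Ebf1 acts in stroma as well as in B lymphocytes. PDGF receptor alpha is typical of fibroblasts. PDGF receptor beta is typical of pericytes and mesangial cells, to which endothelial cells send the ligand PDGF-B.

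Stromal nuclei numbered 690 and 491 in stroma 1 and 1309 and 1145 in stroma 2 of the P0 samples, but only 90 to 107 in stroma 1 and 206 to 535 in stroma 2 of the adult samples. Nuclei had a median of open peaks that ran from 5010.5 to 7624 in the P0 sums and from 1919.5 to 4547 in the adult ones. Because a deeper nucleus has more peaks open, shares were also computed after thinning to 1000 open peaks, which left out the shallower nuclei, 27 of 1181 at P0 and 37 of 298 in adult stroma 1, and 56 of 2454 and 40 of 1085 in stroma 2. The summed window accessibility of 6 stroma markers, Col1a1, Col1a2, Col3a1, Dcn, Pdgfra and Pdgfrb, of which the last 2 are among the 8 genes, was 395 to 413 CPM in stroma 1 at P0 and 167 to 244 CPM in adult samples. In stroma 2 it was 402 to 405 CPM and 422 to 497 CPM. In stroma 1 the 5 proximal tubule markers summed to 71.4 to 96.9 CPM at P0, to 530 CPM at P21 and to 124 and 386 CPM at P56, and in stroma 2 to 88.8 to 98.6 CPM at P0 and 106 to 226 CPM in adults. The 2 loop of Henle markers went from 14.9 to 19.9 CPM at P0 to 23.5 to 78.3 CPM in adults in stroma 1, and from 15.5 to 15.9 CPM to 20.2 to 51.2 CPM in stroma 2. Slc12a3, the salt carrier of the distal convoluted tubule, held 21.7 to 25.8 CPM at P0 and 108 to 140 CPM in adult stroma 1, and 23.0 to 23.8 CPM and 51.1 to 85.6 CPM in stroma 2. The 7 endothelial markers summed to 283 to 302 CPM at P0 and 347 to 491 CPM in adults in stroma 1, and to 287 to 294 CPM and 222 to 269 CPM in stroma 2. All 6 stroma markers were highest in stroma 2 among the 13 clusters over 5 samples, and no marker of these 5 lists was at 0 in either stromal cluster. With age in stroma 1, where 13.3% of all tested genes were called higher and 15.4% lower, all 6 stroma markers were called lower. A gene low at 1 stage can be tested through its counts at the other stage alone. Such a call supports nothing, and such genes were not set apart in these lists. The 3 proximal tubule markers that could be tested, both loop of Henle markers, Slc12a3 and 1 of 6 tested endothelial markers were called higher. The 5 nephron progenitor markers summed to 69.3 to 75.8 CPM at P0 and 23.5 to 40.8 CPM in adults there. The 5 podocyte markers went from 169 to 171 CPM to 128 to 168 CPM, and the 5 collecting duct markers from 95.1 to 96.0 CPM to 47.1 to 71.4 CPM. Of these 3 lists Eya1, Wt1 and Atp6v0d2 were called lower and Podxl higher. In stroma 2, where 16% of all tested genes were called higher and 20% lower, this held for other counts. Called higher were 2 of 3 tested proximal tubule markers, 1 of 2 loop of Henle markers and Slc12a3, and called lower were 3 of 7 endothelial markers. The nephron progenitor, podocyte and collecting duct sums were lower in each adult than in each P0 sample there too. Of their tested markers 2 of 4, 2 of 4 and 1 of 3 were called lower. The part of these levels in the differences below was not tested. In total 477 barcodes occurred in more than 1 library, on 188 of the 5018 stromal nuclei.

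The 8 genes were more accessible in the stroma than in the mean of the 11 other clusters, with the exception of Tbx18 in adult stroma 1. At P0 all 8 were called higher in stroma 1, where 24.5% of the tested genes were, and all 8 in stroma 2, where 29.6% were. The median log2 difference of the 8 was 1.69 and 1.72, beside 0.02 over all genes in each cluster. In adult kidneys 7 of 8 were called higher in stroma 1, with 8.23% of all genes, and all 8 in stroma 2, with 24.2%, and the medians were 1.94 and 2.63. In adult stroma 1, Foxd1 was not called when any of the P0 or P56 samples was left out, at log2 0.50 to 1.02, and in adult stroma 2 Foxd1 and Tbx18 were not called without P56 sample 1, at 0.61 and 0.88. The clusters were made from the same nuclei, so these p-values, as those between stroma 1 and stroma 2, rank genes and are no independent test.

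Foxd1, of stromal progenitors and podocytes, was highest in podocytes, at 77.4 ± 6.9 CPM (SD, n = 2) at P0 and 73.2 ± 31.5 CPM (n = 3) in adults. Stroma 1 held 35.4 ± 3.1 and 20.1 ± 9.8 CPM and stroma 2 23.8 ± 1.9 and 17.6 ± 6.1 CPM of Foxd1. Nephron progenitors, at 40.0 ± 1.8 CPM, lay above stroma 1 at P0. In adults the level in stroma 1, stroma 2 and the distal convoluted tubule differed by less than the SD.

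Tbx18 led in stroma at P0, with 36.7 ± 1.1 CPM in stroma 2 and 31.1 ± 1.8 CPM in stroma 1, above nephron progenitors at 19.0 ± 2.7 CPM and podocytes at 18.4 ± 3.6 CPM. In adults its levels were low everywhere, from 2.52 CPM in the loop of Henle to 11.4 CPM in podocytes, and each cluster lay within 1 SD of the next. The levels of adult stroma 1, from 3.36 to 3.73 CPM, rest on 4 open calls in 298 nuclei, so its place in this order is not resolved.

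Meis1 and Twist1 were highest in stroma at both stages. Meis1 reached 231 ± 5.4 CPM in stroma 1 and 193 ± 3.4 CPM in stroma 2 at P0, followed by endothelium at 167 ± 7.1 CPM. In adults its order was stroma 2 at 193 ± 22 CPM, stroma 1 at 175 ± 35 CPM and endothelium at 120 ± 25 CPM, of which the stromal levels differed by less than the SD. Twist1 held 43.7 ± 1.1 CPM in stroma 1 and 24.4 ± 1.3 CPM in stroma 2 at P0, and 14.8 ± 0.22 CPM in the next cluster, the principal cells. In adults the mean of no cluster outside the stroma was above 6.50 CPM, while stroma 1 held 26.2 ± 8.7 CPM and stroma 2 21.8 ± 3.8 CPM.

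Meis2 and Ebf1 were shared with other cell types. Meis2 was highest in nephron progenitors at P0, at 300 ± 8.7 CPM, above stroma 1 at 264 ± 18.2, endothelium at 239 ± 0.51 and stroma 2 at 207 ± 3.2 CPM. In adults the endothelium led, at 328 ± 26 CPM. Stroma 2 followed at 234 ± 31 and stroma 1 at 166 ± 29 CPM. The cluster labelled nephron progenitors held 52.8 ± 14.6 CPM in adults, from 52 nuclei at P21 and 90 and 53 at P56. The paper places the end of nephron formation around day 21, and the identity of these adult nuclei was not tested. These nuclei also enter the adult mean of the clusters outside the stroma. For Ebf1 the P0 order was stroma 1 at 300 ± 27, stroma 2 at 292 ± 10 and endothelium at 249 ± 31 CPM. The adult order was endothelium at 315 ± 43, stroma 2 at 273 ± 63 and stroma 1 at 218 ± 59 CPM, each within 1 SD of its neighbour and all above podocytes, which came next at 61.2 CPM.

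For the Pdgf receptor genes the stroma led at both stages. Pdgfra held 89.2 ± 5.2 CPM in stroma 1 and 84.4 ± 2.2 CPM in stroma 2 at P0, and the next cluster, the loop of Henle, held 45.1 ± 0.63 CPM. In adults stroma 2, at 114 ± 14 CPM, was followed by stroma 1 at 46.7 ± 4.8 CPM and then by connecting tubule at 22.1 ± 3.5 CPM. Pdgfrb held 136 ± 5.9 and 130 ± 2.8 CPM at P0, above 56.7 CPM in immune cells. In adults stroma 2 held 193 ± 14 CPM, stroma 1 90.0 ± 25.3 CPM and podocytes 74.2 ± 26.2 CPM, and the last 2 differed by less than the SD.

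**Figure D1:**
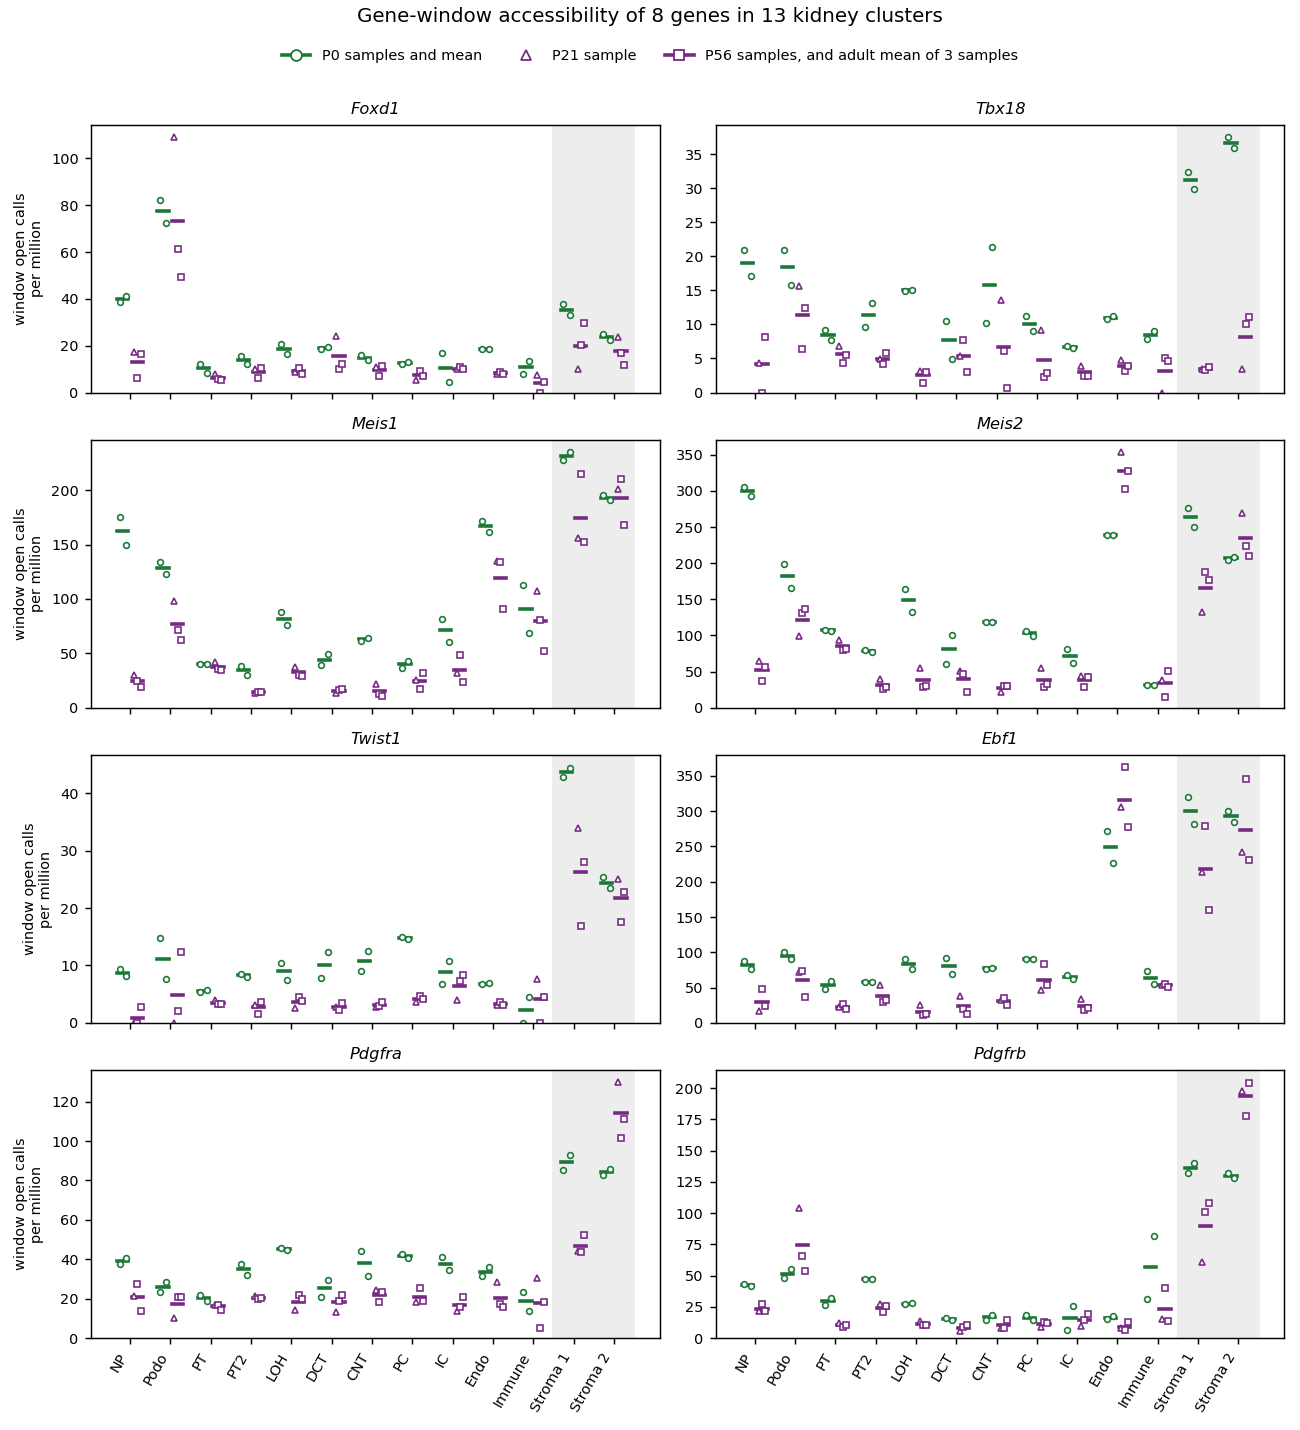
Window accessibility (CPM) of each gene in 13 clusters, with a circle for each P0 sample, a triangle for P21, squares for P56 and a bar for the mean of a stage; the stromal clusters are shaded, and the others are nephron progenitors (NP), podocytes (Podo), the clusters PT and PT2 of the proximal tubule, loop of Henle (LOH), distal convoluted (DCT) and connecting tubule (CNT), principal (PC) and intercalated cells (IC), endothelium (Endo) and immune cells. Foxd1 is highest in podocytes, Meis2 is highest in nephron progenitors at P0 and in endothelium in adults, Ebf1 is within 1 SD of adult endothelium in adult stroma 2, and the adult samples of Pdgfra and Pdgfrb in stroma 2 lie above every other adult point.

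Several of the peaks described below lie in introns and outside the genes, and the central 300 bases of 6 of these are given here, 5′ to 3′ on the forward strand of the mm10 genome of RefSeq. Capitals mark the letters CATCTG or CATATG (Twist E-boxes), TGACAG (Meis), GTAAACA (forkhead), AGGTGTGA (T-box) or TCCC, any 2 bases, GGGA (Ebf) on either strand.
Foxd1, distal, 30165 bp downstream of the start, chr13:98384258-98384557: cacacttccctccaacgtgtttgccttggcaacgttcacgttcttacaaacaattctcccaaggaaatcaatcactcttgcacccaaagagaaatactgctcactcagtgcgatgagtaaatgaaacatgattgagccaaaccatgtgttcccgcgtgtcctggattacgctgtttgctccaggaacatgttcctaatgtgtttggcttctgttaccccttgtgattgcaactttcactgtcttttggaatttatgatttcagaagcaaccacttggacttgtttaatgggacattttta
Meis2, distal, 205542 bp downstream, chr2:115860148-115860447: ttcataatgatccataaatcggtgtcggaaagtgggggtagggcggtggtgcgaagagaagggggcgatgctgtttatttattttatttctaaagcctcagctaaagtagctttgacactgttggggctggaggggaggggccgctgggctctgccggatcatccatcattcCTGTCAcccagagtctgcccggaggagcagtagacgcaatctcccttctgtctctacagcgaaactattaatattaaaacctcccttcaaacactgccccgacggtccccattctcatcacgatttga
Ebf1, intron, 21295 bp downstream, chr11:44638463-44638762: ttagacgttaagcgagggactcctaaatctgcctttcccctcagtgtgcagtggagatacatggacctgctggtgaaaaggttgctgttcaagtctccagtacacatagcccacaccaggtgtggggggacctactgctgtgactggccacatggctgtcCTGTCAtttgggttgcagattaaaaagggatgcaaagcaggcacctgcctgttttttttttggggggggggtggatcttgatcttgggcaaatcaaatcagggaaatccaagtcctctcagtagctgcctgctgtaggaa
Ebf1, intron, 181082 bp downstream, chr11:44798250-44798549: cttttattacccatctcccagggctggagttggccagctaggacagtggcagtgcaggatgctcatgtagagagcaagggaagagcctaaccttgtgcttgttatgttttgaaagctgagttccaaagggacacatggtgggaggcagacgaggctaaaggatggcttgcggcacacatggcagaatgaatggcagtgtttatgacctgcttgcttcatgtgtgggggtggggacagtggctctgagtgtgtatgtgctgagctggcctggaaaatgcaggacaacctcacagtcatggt
Pdgfra, distal, 42877 bp upstream, chr5:75109266-75109565: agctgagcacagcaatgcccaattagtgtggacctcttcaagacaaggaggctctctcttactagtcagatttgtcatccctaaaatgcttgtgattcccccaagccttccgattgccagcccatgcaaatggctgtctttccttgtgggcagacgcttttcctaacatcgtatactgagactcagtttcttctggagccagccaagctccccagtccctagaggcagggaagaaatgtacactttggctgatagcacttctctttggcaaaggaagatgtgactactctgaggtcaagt
Pdgfra, distal, 3401 bp upstream, chr5:75148742-75149041: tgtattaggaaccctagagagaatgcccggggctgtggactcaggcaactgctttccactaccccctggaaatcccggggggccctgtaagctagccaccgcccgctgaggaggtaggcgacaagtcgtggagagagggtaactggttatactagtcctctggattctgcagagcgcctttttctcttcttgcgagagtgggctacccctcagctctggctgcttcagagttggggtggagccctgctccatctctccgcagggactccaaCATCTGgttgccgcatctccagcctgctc

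CATCTG and TGACAG were about as common in the member peaks as in all peaks of this length. CATCTG was present in 21.1% of the window peaks and 19.4% of the distal peaks, against 22.8% of all 300693 peaks searched, and TGACAG in 23.0% and 23.3% against 22.5%. GTAAACA was present in 3.43% and 3.88% against 5.09%, CATATG in 3.92% and 3.1% against 5.44%, and AGGTGTGA in none of the window peaks and in 1 distal peak, which is 0.775%, against 1.20%. The Ebf letters were in 3 window peaks, or 1.47%, and in 4 distal peaks, or 3.1%, against 1.00% of all peaks. A match describes letters and not a bound site.

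In stroma 1 all 8 genes were less accessible in adult than in P0 nuclei. All 8 were called lower, where 15.4% of the tested genes were, with a median log2 difference of -0.82 against 0.02 over all genes. Of these, Tbx18 rests on 4 adult open calls and passed the filter on low counts through the P0 samples alone, so its call supports nothing. In stroma 2 only Tbx18 was called lower, where 20% of genes were, and only Pdgfrb higher, where 16% were, with a median of -0.11 against 0.00.

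Tbx18 fell most. In stroma 1 its level was 32.4 and 29.8 CPM at P0, 3.40 CPM at P21 and 3.36 and 3.73 CPM at P56, and in stroma 2 it was 37.4 and 35.9, 3.41, and 10.1 and 11 CPM. Every adult sample lay below every P0 sample in both clusters. In stroma 1 these levels are 124 and 96 open calls at P0 and 1, 1 and 2 in adults, and the P0 level per open call was 8.81-fold higher (95% counting interval 3.39 to 32.6). Tbx18 was called lower there, but it passed the filter on low counts through the P0 samples alone, so no p is given. In stroma 2, with 355 and 323 open calls at P0 and 3, 19 and 16 in adults, the log2 change was -2.09 ± 0.24 (SE), with an adjusted p of 2.24e-05 by the edgeR quasi-likelihood test. The peak over the Tbx18 start was open in 12% and 13.6% of P0 stroma 1 nuclei and in 0.93% to 1.98% of adult ones, and in 17.6% and 18.9% against 0.97% to 3.78% of stroma 2 nuclei.

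The other transcription factor genes fell in stroma 1 by less. Their log2 changes were -0.87 ± 0.26 for Twist1, -0.84 ± 0.30 for Foxd1, -0.81 ± 0.17 for Meis2, -0.67 ± 0.18 for Ebf1 and -0.59 ± 0.16 for Meis1, with adjusted p from 0.000771 for Meis2 to 0.0378 for Foxd1 (edgeR). Twist1 held 42.9 and 44.4 CPM at P0, 34.0 CPM at P21 and 16.8 and 28.0 CPM at P56. Meis2 held 276 and 251 CPM, then 133, and then 188 and 177 CPM. All adult samples of both genes lay below the P0 samples. The levels of Foxd1, at 37.7 and 33.2, 10.2, and 20.2 and 29.8 CPM, and of Meis1, at 228 and 235, 156, and 215 and 153 CPM, were also lower in each adult sample, with P56 sample 2 of Foxd1 and P56 sample 1 of Meis1 close to P0. Ebf1, at 320 and 281, 214, and 279 and 160 CPM, was about level with the lower P0 sample in P56 sample 1.

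In stroma 2 these genes were not called. Their log2 changes there ran from -0.58 ± 0.23 for Foxd1 (adjusted p = 0.0597, edgeR) to 0.10 ± 0.13 for Meis2. Meis1, at 196 and 191 CPM at P0, 201 CPM at P21 and 210 and 168 CPM at P56, had P0 and adult samples mixed in order.

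The receptor genes fell in stroma 1, and in stroma 2 their adult levels were above those at P0. Pdgfra held 85.5 and 92.9 CPM in stroma 1 at P0, 44.2 CPM at P21 and 43.7 and 52.2 CPM at P56, a log2 change of -1.05 ± 0.19 with an adjusted p of 0.000251 (edgeR). Pdgfrb held 132 and 140 CPM, then 61.2, and then 101 and 108 CPM, a log2 change of -0.69 ± 0.18 with an adjusted p of 0.00458. In stroma 2 Pdgfrb rose from 132 and 128 CPM at P0 to 198 CPM at P21 and 178 and 204 CPM at P56, by 0.50 ± 0.13 on the log2 scale (adjusted p = 0.0074). With windows of 2 kb on each side of every transcript start in place of the gene body, this rise was not called. Over 13 alternatives its log2 value ran from 0.13 to 0.55. In the same stroma 2 sums the proximal tubule, loop of Henle and Slc12a3 levels were also above those at P0, and their part in this rise was not tested. Pdgfra in stroma 2 held 82.8 and 86.0 CPM at P0 and 130, 102 and 111 CPM in adults, with a log2 change of 0.34 ± 0.13 that was not called (adjusted p = 0.0532). For each receptor gene the order of the stages was opposite in the 2 clusters, in every sample. The share of all genes whose P0 and adult samples separate was not counted. Such an order, here and for the genes above, thus only describes the values.

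The number of calls in stroma 1 varied with the libraries used. The share of all genes called in each such fit is not given here, so these counts are not set against it. Without P0 sample 1 only 2 genes were called lower, without P0 sample 2 it was 3, and without P56 sample 2 it was 4. With P56 sample 1 as the only adult library, which has the lowest proximal tubule and the highest endothelial marker level of adult stroma 1, 2 were called. Pdgfra was called in each of these, where a lone sample of a stage is assumed to vary like the others. Tbx18 was too, but with 1 or 2 open calls in each adult library this says little about its stability. Without P0 sample 1 or 2, Pdgfrb in stroma 2 was not called, at log2 0.54 and 0.45, and without P56 sample 1 the number of genes called in stroma 2 was 5.

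Between the clusters at P0, 4 transcription factor genes were lower in stroma 2 than in stroma 1 and neither receptor gene was called. Called lower were Twist1, Foxd1, Meis2 and Meis1, where 10.2% of tested genes were, and called higher was Tbx18, where 13.4% were. Twist1 differed most, by -0.77 ± 0.11 on the log2 scale (adjusted p = 9.71e-08, edgeR): stroma 1 held 42.9 and 44.4 CPM and stroma 2 25.3 and 23.5 CPM. The others were -0.52 ± 0.12 for Foxd1, -0.30 ± 0.06 for Meis2, -0.20 ± 0.06 for Meis1 and 0.29 ± 0.11 for Tbx18. Ebf1, Pdgfra and Pdgfrb differed by 0.02 ± 0.06, -0.02 ± 0.07 and -0.00 ± 0.06. Of 7 endothelial markers, 3 were called higher and 2 lower in stroma 2. Also called higher were 1 of 3 tested immune, 1 of 4 nephron progenitor and 1 of 5 proximal tubule markers, and lower 1 of 4 podocyte markers. Of 3 tested collecting duct markers 1 was higher and 1 lower. The part of other cell types in these P0 differences was not tested. Without either P0 sample only 1 gene was called, Twist1, with the lone sample assumed to vary like the rest, and after thinning none was (Twist1 -0.64, adjusted p = 0.23, edgeR). Without the library as a block, the only call was Twist1.

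In adult kidneys 4 genes were higher in stroma 2 than in stroma 1, the receptor genes by the most. Called higher in stroma 2 were Pdgfra, Pdgfrb, Meis2 and Ebf1, where 7.68% of tested genes were, and none was called lower. The median log2 difference of the 8 was 0.51, against -0.02 over all genes. Pdgfra was higher by 1.35 ± 0.18 (adjusted p = 1.81e-07, edgeR) and Pdgfrb by 1.17 ± 0.15 (adjusted p = 7.75e-08), in 3 of 3 adult samples each. Meis2, with 270, 223 and 210 CPM in stroma 2 against 133, 188 and 177 CPM in stroma 1, was higher by 0.55 ± 0.14. Ebf1, with 242, 346 and 231 CPM against 214, 279 and 160 CPM, was higher by 0.48 ± 0.14. Meis2 was not called without the P21 sample (0.39) and Ebf1 was not without P56 sample 2 (0.41), and after thinning only the receptor genes were. Tbx18, at 1.42 ± 0.64, was not called, and its P21 levels were 3.40 CPM in stroma 1 and 3.41 CPM in stroma 2. With windows of 2 kb on each side of every transcript start in place of the gene body, Pdgfrb was not called (log2 0.44, adjusted p = 0.36, edgeR).

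The difference between the clusters itself differed between the stages for 5 genes, where 4.68% of all genes were called in this direction. The change, adult minus P0, in the log2 difference of stroma 2 from stroma 1 was 1.37 ± 0.20 for Pdgfra (adjusted p = 1.85e-06, edgeR), 1.17 ± 0.17 for Pdgfrb (1.43e-06), 0.85 ± 0.16 for Meis2 (0.000113), 0.46 ± 0.15 for Ebf1 (0.0424) and 0.45 ± 0.15 for Meis1 (0.0448). The median of the 8 was 0.73, against 0.00 over all genes. Without P0 sample 1 the number called was 2, and without P0 sample 2 or P56 sample 2 it was 3. In adult stroma 1 the summed levels of proximal tubule and endothelial markers were above those at P0, as given above, and their part in these differences was not tested. In P56 sample 1, whose stroma 1 sum held the fewest proximal tubule marker calls among adults, at 124 CPM, and the most endothelial ones, at 491 CPM, Pdgfra held 43.7 CPM in stroma 1 and 102 CPM in stroma 2, and Pdgfrb 101 and 178 CPM. Leaving out the nuclei with shared barcodes, the number of genes called was within 1.5 times that of all nuclei in each of these comparisons.

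**Figure D2:**
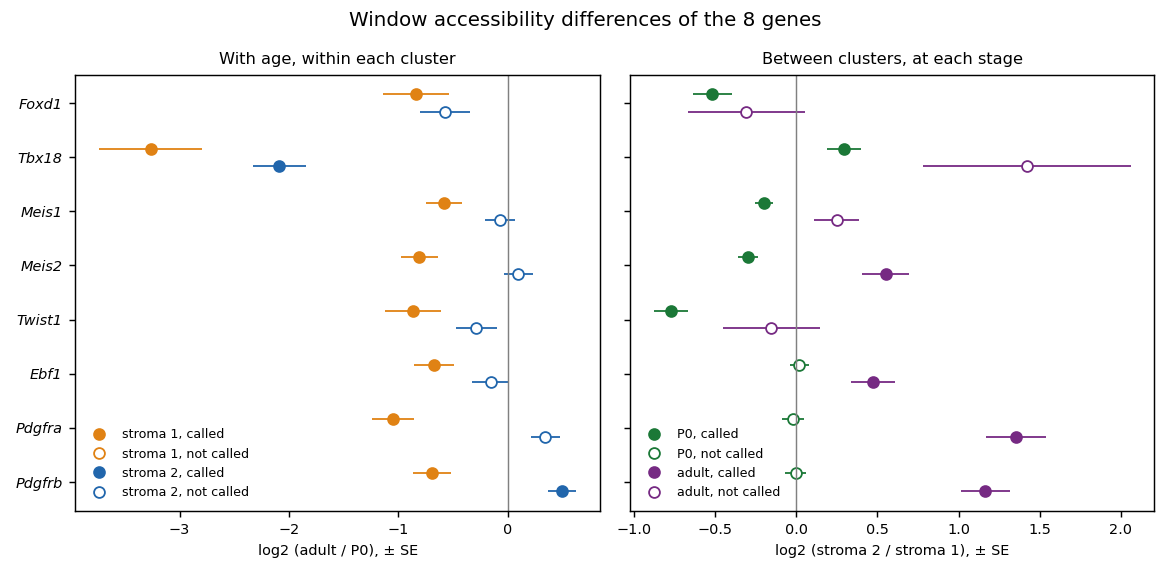
Log2 difference in window accessibility of the 8 genes, adult over P0 within each cluster on the left and stroma 2 over stroma 1 at each stage on the right, with bars of 1 SE and filled points for genes called at an adjusted p of 0.05. In stroma 1 all 8 points lie below 0, and the largest called adult difference between clusters is that of Pdgfra, at 1.35.

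Single peaks showed where along each gene the clusters separated. Unless said to be thinned, their shares are not scaled for depth, and adult nuclei had fewer open peaks. A lower adult share is thus not by itself a fall per open call. A stromal cluster was on top among the 13 in 142 of the 333 peaks, stroma 2 in 98 and stroma 1 in 44, and in 44 peaks this held in 5 of 5 samples. Over all 300755 peaks a stromal cluster was on top in 19.3%, against 42.6% of the 333. The share was higher in stroma 2 than in stroma 1 in 198 of the 333, or 59.5%, where 54.7% of all peaks were, and stroma 2 nuclei had more open peaks than stroma 1 nuclei in 4 of 5 samples. After thinning the cluster on top was the same in 257. By gene, a stromal cluster was on top of 47 of 91 peaks of Ebf1, 29 of 52 of Meis1, 21 of 69 of Meis2, 15 of 51 of Pdgfrb, 13 of 24 of Pdgfra, 8 of 14 of Tbx18, 5 of 11 of Twist1 and 4 of 21 of Foxd1. For Pdgfrb this was 8 of 13 window peaks and 7 of 38 distal peaks, and 29 of the distal ones lie in windows of other protein-coding genes. Of the Meis2 and Ebf1 peaks, 20 and 22 were highest in endothelium, 7 Foxd1 peaks were highest in podocytes, and 18 Pdgfrb peaks in the cluster labelled PT2.

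Few member peaks passed the filter on low counts, 144 of 333 in the fit over 13 clusters, 105 in that of the stromal clusters, 92 for age in stroma 2 and 25 for age in stroma 1. A peak that passes only through the group where it is high had to differ, so the counts describe the tested peaks and support nothing, and no p is given for a peak named for its largest change. The ratios and limits given for single peaks pool the nuclei of a stage and cover counting error only. For a peak named for its largest change they describe it and support nothing. Against the 11 other clusters at P0, 97 were called higher in stroma 1, where 31.8% of all tested peaks were, and 103 in stroma 2, where 37.4% were. In adults 42 were in stroma 1 and 101 in stroma 2, where 7.41% and 27.5% of all tested peaks were. Called lower in stroma 2 were 3 at P0, where 7.23% were, and 1 in adults, where 5.53% were, and in stroma 1 none at either stage, where 5.02% and 0.968% were. With age, 15 were called lower in stroma 1 and none higher, where 20.8% were called lower and 17.0% higher, and 14 were called higher and 19 lower in stroma 2, where 23.7% and 26.5% were. Stroma 2 was higher than stroma 1 in 13 and lower in 30 at P0, where 20.8% and 13.8% were, and higher in 28 and lower in none in adults, where 15.0% and 3.38% were. The difference between clusters rose from P0 to adult in 15 peaks and fell in none, where 6.61% and 1.05% did. Leaving out 1 library moved these counts, and the share of all peaks called in each such fit is not given here. In stroma 1 the number called with age was 8 without P0 sample 1 and 28 to 38 without 1 of the adult samples, and in stroma 2 it was 15 and 16 without 1 of the P0 samples and 52 to 57 without 1 of the adult samples. Between the clusters it was 14 and 16 at P0 without 1 of the P0 samples, and 14 in adults without P56 sample 1. The change between stages was called in 9 peaks without P0 sample 1 or P56 sample 2 and in 7 without P0 sample 2. The median log2 difference between the clusters in adults over all peaks was 0.24, and 0.13 with the size factors of DESeq2, so that an unchanged peak is not at 0 on this scale.

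**Figure D3:**
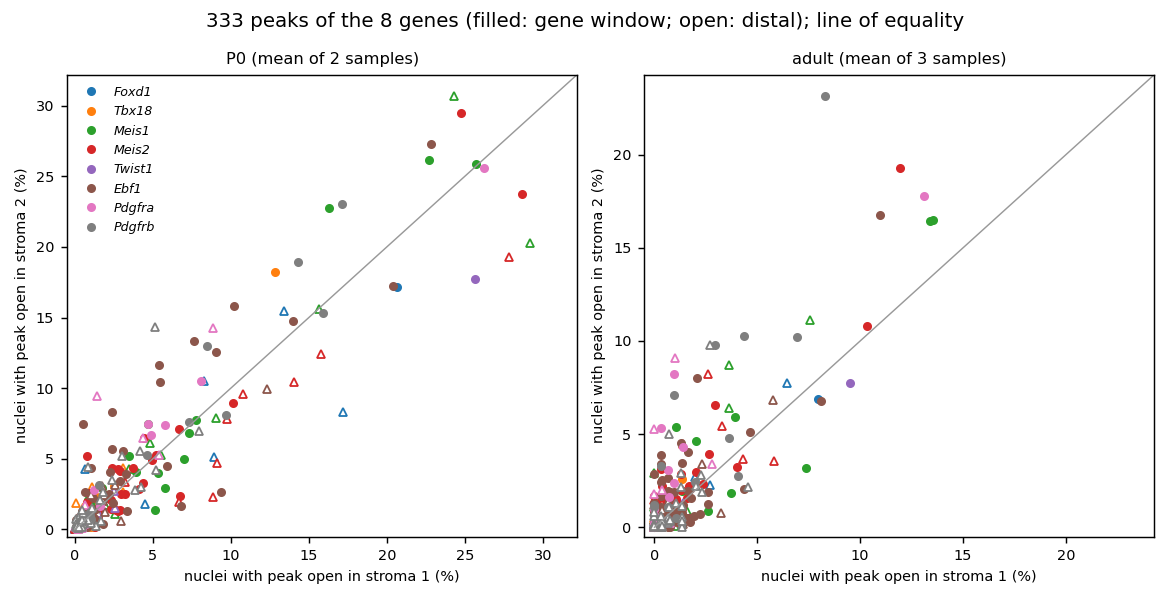
Share of stroma 2 nuclei (vertical axis, %) against stroma 1 nuclei (horizontal axis, %) with each of the 333 peaks open, as the mean of 2 P0 samples on the left and of 3 adult samples on the right, coloured by gene, with the line of equality. The adult point farthest above the line is the intron peak of Pdgfrb, open in 23.1% of stroma 2 nuclei.

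Among the transcription factor genes, Foxd1 had a distal peak that was open in stroma at P0 and in podocytes in adults. This peak, 30165 bp downstream, was open in 16.8% and 17.5% of P0 stroma 1 nuclei and in 8.86% and 7.77% of stroma 2 nuclei, beside a mean of 1.92% of podocytes. In adult samples it was open in 0% to 2.22% and 0.87% to 1.46% of stromal nuclei, beside a mean of 8.81% of podocytes. Over all 5 samples stroma 1 held 7.51%, podocytes 6.05% and stroma 2 4.05%, a stromal cluster was on top in 2 of 5 samples, and after thinning podocytes were on top. In adult stroma 1 this was 3 of 298 nuclei, and per open call the P0 level was 10.8-fold higher (95% counting interval 3.64 to 52.7). The peak over the Foxd1 start, in contrast, was highest in podocytes at 26.1%, with 13% in stroma 1 and 11% in stroma 2 over 5 samples. The Foxd1 start peak fell in stroma 1 (log2 -0.81 ± 0.29, adjusted p = 0.0205, edgeR).

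Meis1 peaks differed in how they changed with age. The peak over its start was open in 24.8% and 26.7% of P0 stroma 1 nuclei and in 24.8% and 27.0% of stroma 2 nuclei, and in 9.35% to 19.8% and 13.1% to 20.9% of adult ones, with no call for age in either cluster. A distal peak 167993 bp downstream of the start, beyond the last exon, was open in 7.95% and 7.77% of P0 stroma 2 nuclei and in 1 of 1085 adult ones, so that the P0 level per open call was 43.9-fold higher (95% counting interval 7.79 to 1740). The distal peak 141333 bp downstream was the most often open of them, in 21.7% to 32.1% of P0 and 4.44% to 13.4% of adult stromal nuclei, with a log2 change of -1.09 ± 0.28 in stroma 1 and -0.51 ± 0.19 in stroma 2. A further distal peak, 4758 bp upstream, was closed in all 298 adult stroma 1 nuclei, which allows a share of up to 1.01%, and open in 34 of 1085 adult stroma 2 nuclei. By counting error alone, the lower limit of its ratio per open call in stroma 2 was 3.04, with a floor of 3 calls over the group. The peak was named for its largest change, so this only describes it.

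Meis2 had a distal peak whose order between the clusters turned with age. The peak 205542 bp downstream of the start, just beyond the gene, was open in 27.0% and 28.7% of stroma 1 nuclei at P0, in none at P21 and 2.80% and 4.95% in the P56 samples. In stroma 2 it was open in 20.1% and 18.5%, then 10.2%, and then 6.36% and 8.14%. Stroma 1 was thus above stroma 2 in both P0 samples and below it in all 3 adult samples. The adult stroma 1 shares are 0, 3 and 5 open nuclei, so the adult order and the test of its change rest on few nuclei. The log2 difference of stroma 2 from stroma 1 was -0.79 ± 0.10 at P0 and 1.74 ± 0.44 in adults, and its change was 2.53 ± 0.43 (adjusted p = 1.91e-06, edgeR). Thinned shares were 4.73% and 0.37% in stroma 1 and 2.69% and 2.06% in stroma 2 at P0 and in adults. Endothelium, at 17.6%, held the highest share of this peak over all samples. At the Meis2 start, the shares in stroma 1 were 21.7% and 27.7% at P0 and 6.67% to 20.8% in adults, and those in stroma 2 28.9% and 30.1%, and 10.1% to 26.2%. In stroma 2 these were 378 and 345 open nuclei at P0 and 54, 54 and 74 in adults. All open calls of stroma 2 numbered 18483892 at P0 and 4206565 in adults. Over the pooled nuclei the lower share is thus not a fall per open call.

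Twist1 had 11 peaks, of which the peak over its start was the most often open in stroma. It was open in 23.0% and 28.3% of stroma 1 nuclei at P0, 10.0% at P21 and 4.67% and 13.9% in the P56 samples, and in 17.3% and 18.2%, 9.71%, and 5.05% and 8.43% of stroma 2 nuclei. The log2 difference between the clusters at P0 was -0.79 ± 0.11 (adjusted p = 2.82e-11), and the age change in stroma 1 was -0.89 ± 0.26 (adjusted p = 0.00376, edgeR). Its most open distal peak, 9977 bp downstream, was open in at most 3.05% of the nuclei of any stromal sum.

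Ebf1, with 80 window peaks the largest set, held intron peaks that were higher in opposite clusters at P0. At P0 the intron peak 21295 bp downstream was open in 7.10% and 6.52% of stroma 1 nuclei and in 1.6% and 1.66% of stroma 2 nuclei. The intron peak 181082 bp downstream was open in 0.43% and 0.61% of stroma 1 and in 7.49% and 7.42% of stroma 2 nuclei. In adults the former was open in none of the 1085 stroma 2 nuclei, which allows up to 0.276%, and in 2 of 298 stroma 1 nuclei, where the P0 level per open call was 6.49-fold higher (95% counting interval 1.74 to 54.5). The latter was open in 12 of 1085 adult stroma 2 and 3 of 298 adult stroma 1 nuclei, a ratio per open call of 1.07 (95% counting interval 0.29 to 5.93). Another intron peak, 289498 bp downstream, was open in 10.2% and 10.7% of P0 and 5.83% to 11.2% of adult stroma 2 nuclei and in 0.18% of nuclei of the 11 other clusters. At the Ebf1 start the shares were 21.9% and 23.8% at P0 and 8.89% to 13.1% in adults in stroma 1, and 26.2% and 28.4%, and 15.0% to 18.6% in stroma 2. In stroma 2 these were 343 and 325 open nuclei at P0 and 31, 89 and 64 in adults. All open calls of stroma 2 numbered 18483892 at P0 and 4206565 in adults. Over the pooled nuclei the lower share is thus not a fall per open call.

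In Pdgfra the start and upstream peaks separated adult stroma 2 from adult stroma 1. The peak over the start was open in 7.83% and 8.35% of stroma 1 nuclei at P0, in none at P21 and 0.93% and 1.98% in the P56 samples, and in 10.3% and 10.7%, 8.74%, and 6.36% and 9.59% of stroma 2 nuclei. In adults this was 3 of 298 against 85 of 1085 nuclei, a ratio per open call of 7.60 (95% counting interval 2.51 to 37.6). The distal peak 3401 bp upstream followed the same order, with 7.97% and 9.78%, 1.11%, and 0.93% and 0.99% in stroma 1 and 14.3% and 14.2%, 10.7%, and 8.41% and 8.14% in stroma 2, and a ratio of 8.49 (2.82 to 41.9) in adults. Every stroma 2 value of both peaks lay above every adult stroma 1 value.

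Another distal peak of Pdgfra, 42877 bp upstream, was a stroma 2 peak at both stages. It was open in 9.17% and 9.69% of stroma 2 nuclei at P0, in 6.31% at P21 and 6.54% and 2.91% in the P56 samples, against 1.45% and 1.43% of stroma 1 nuclei at P0. None of the 298 adult stroma 1 nuclei had it open, which allows a share of up to 1.01%, beside 58 of 1085 adult stroma 2 nuclei. By counting error alone, the lower limit of its ratio per open call in adult stroma 2 was 5.19. The peak was named for its largest adult difference, so this only describes it. The mean share in the 11 other clusters was 0.17%. By contrast, the most open Pdgfra peak, 4248 bp downstream, was also open in 10.6% of nuclei of the other clusters, and in adults its cluster difference was not called.

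In Pdgfrb, on chromosome 18, the clusters differed at intron peaks. The peak over the start was open in 14.3% and 17.5% of stroma 1 and 14.9% and 15.8% of stroma 2 nuclei at P0, and in 3.33% to 10.9% and 5.98% to 12.5% of adult ones, with no call between the clusters at either stage. The intron peak 9711 bp downstream was open in 15.7% and 18.5% of stroma 1 nuclei at P0, 4.44% at P21 and 5.61% and 14.9% in the P56 samples. In stroma 2 it was open in 22.6% and 23.5%, 22.3%, and 20.4% and 26.7%, above every stroma 1 value and at a similar share at each age although adult nuclei had fewer open peaks. Its log2 difference between clusters in adults was 1.66 ± 0.25 (adjusted p = 1.58e-08), and its age change in stroma 2 was 0.93 ± 0.17 (adjusted p = 8.64e-05, edgeR), on the scale relative to all open calls.

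An intron peak of Pdgfrb 25883 bp downstream was nearly closed at P0 and open in adult stroma 2. Its shares in stroma 2 were 1.22% and 1.22% at P0, 6.80% at P21 and 5.79% and 8.72% in the P56 samples. After thinning, the mean shares were 0.19% at P0 and 2.09% in adults. In stroma 1 it was open in 11 of 1181 P0 nuclei and 3 of 298 adult nuclei, and the adult ratio of stroma 2 to stroma 1 was 6.71 (95% counting interval 2.21 to 33.2). The distal peak 48337 bp downstream, in contrast, had its highest share in P0 stroma 2, at 14.2% and 14.5%, against 5.22% and 5.09% in stroma 1 (log2 1.19 ± 0.19, adjusted p = 1.39e-08, edgeR). It was open in 4.36% to 6.36% of adult stroma 2 nuclei. These shares are not scaled for the fewer open peaks of adult nuclei, so they overstate a fall per open call.

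**Figure D4:**
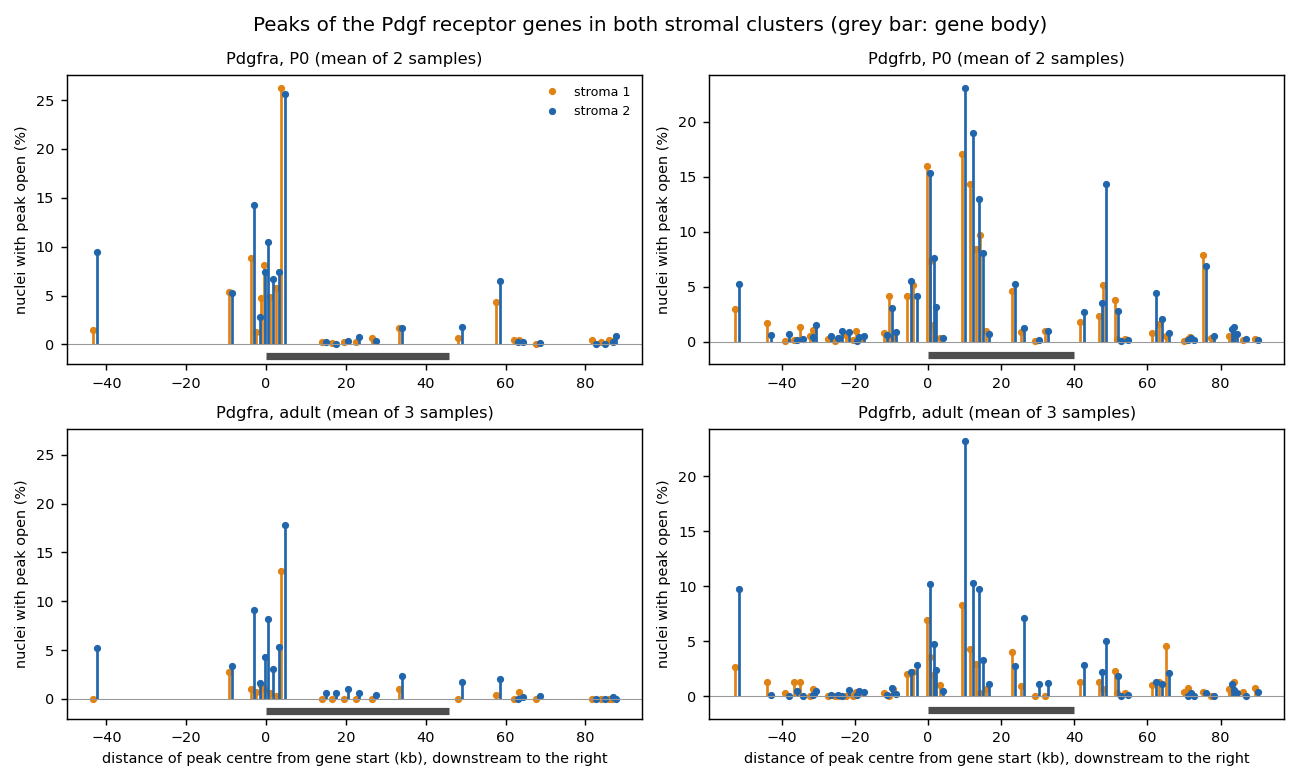
Mean share of nuclei (%) with each peak of Pdgfra (left) and Pdgfrb (right) open in stroma 1 and stroma 2, at P0 (top, 2 samples) and in adults (bottom, 3 samples), against the distance of the peak centre from the gene start in kb, with the gene body as a grey bar and the clusters drawn 0.45 kb to either side for visibility. The Pdgfra peaks over the start and 3401 bp upstream are each open in 3 of 298 adult stroma 1 nuclei, and the tallest adult line is the Pdgfrb intron peak in stroma 2.

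Of the remaining peaks that the rule named, several were led by cells outside the stroma. The most open distal peak of Foxd1, 37231 bp upstream and in the window of Btf3, was highest in the cluster PT2, at 15.9%, with 9.21% in stroma 1 and 10.8% in stroma 2. That of Tbx18, 9575 bp upstream, was highest in intercalated cells, at 4.98%, with 1.43% and 2.27%. The Meis2 intron peak 85740 bp downstream was highest in principal cells, at 5.66%, with 1.96% and 1.14%. The Pdgfrb distal peak 51476 bp downstream was highest in PT2, at 23.6%, with 2.93% and 2.27%. The others were highest in stroma. A Meis1 exon peak 135242 bp downstream was open in 6.52% and 7.54% of P0 and 5.61% to 9.90% of adult stroma 1 nuclei, with no call for age. In stroma 2 it was open in 5.19% and 4.72%, and in 2.43% to 3.55%. The Ebf1 intron peak 53281 bp downstream was open in 13.9% and 12.8% of P0 and 1.16% to 1.87% of adult stroma 2 nuclei. The most open distal peak of Ebf1, 6063 bp upstream, was open in 8.39% of stroma 1 and 8.09% of stroma 2 nuclei and in 5.55% of those of the 11 other clusters.

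Genes around the members were described by lists. Over all tested genes, 13.3% rose and 15.4% fell with age in stroma 1, and 16% and 20% did in stroma 2. Between the clusters, 13.4% were higher and 10.2% lower in stroma 2 at P0, and 7.68% and 6.31% in adults, and the cluster difference rose between the stages in 4.68% and fell in 4.57%. Of the 4 ligand genes, Pdgfb, Pdgfa and Pdgfc were called higher with age in stroma 1, by 2.05 ± 0.19, 1.53 ± 0.17 and 0.51 ± 0.15 on the log2 scale, and none lower. In stroma 2 Pdgfb rose, by 1.34 ± 0.24, and Pdgfd fell, by 0.95 ± 0.22. Between the clusters, Pdgfa was called higher in stroma 2 and Pdgfc and Pdgfb lower at P0, and all 4 ligand genes were lower in stroma 2 in adults, with a median of -1.14. The summed ligand level was 194 to 196 CPM in stroma 1 at P0 and 377 to 410 CPM in adults. Over 5 samples Pdgfb was highest in endothelium, Pdgfa in the distal convoluted tubule, Pdgfc in the cluster PT and Pdgfd in stroma 1. The part of other cell types in these ligand levels was not tested.

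Of 25 other stromal transcription factor genes, 24 could be tested with age in stroma 1, where 10 fell and none rose, and 10 fell and 2 rose in stroma 2, with medians of -0.42 and -0.34. Tcf21, a factor of stromal progenitors and podocytes, fell in stroma 1 by 2.85 ± 0.32 on the log2 scale, and Gli2, an effector of hedgehog signalling, fell in stroma 1 by 1.62 ± 0.19 and in stroma 2 by 1.46 ± 0.19. Tcf21 averaged 36.0 CPM over the 5 stroma 1 sums, so this fall leaves few adult calls. It may have been tested through its P0 counts alone. Genes of this kind were not set apart here or in the lists below, so the counts describe the tested genes. Stroma 2 was higher than stroma 1 in 7 and lower in 5 of the 25 at P0, and higher in 5 and lower in 3 in adults, with medians of 0.00 and 0.23. Their cluster difference rose in 2 and fell in 1 between the stages.

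Of 15 fibroblast matrix genes, 14 could be tested with age in stroma 1, where 12 fell and 1 rose, with a median of -1.27, and 4 fell and none rose in stroma 2, with a median of -0.19. Stroma 2 was higher in 7 and lower in 1 of them at P0 and higher in 10 and lower in none in adults, where the median was 1.31, and the cluster difference rose between the stages in 8 and fell in 1. Their summed level was 966 to 984 CPM in P0 and 483 to 726 CPM in adult stroma 1, and 1102 to 1123 CPM and 1079 to 1153 CPM in stroma 2. The 15 mural cell genes did not follow this order. With age 3 rose and 2 fell of 12 tested in stroma 1 and 2 rose and 5 fell of 14 in stroma 2, and in adults 2 were higher and 4 lower in stroma 2 than in stroma 1. At P0 5 were higher and 3 lower, and the cluster difference fell between the stages in 4 and rose in none. Their summed level in adult stroma 1 was 1049 CPM in P56 sample 1 and 652 and 703 CPM in the others.

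The genes whose window accessibility was most like a member, by Pearson's r of log2 CPM over the 65 sums of 13 clusters and 5 samples, were partly members or matrix genes. For Twist1 they were Col6a2 at 0.80, Adgrl1 at 0.78 and Pdgfra at 0.77, and for Pdgfra they were Col6a2 at 0.83, S1pr3 at 0.81 and Matn2 at 0.81. Matn2 was also among those for Pdgfrb, at 0.79, after Vstm4 at 0.84 and Egflam at 0.81. Foxd1 was most like Arhgap28 at 0.82, Npr3 at 0.81 and the podocyte gene Wt1 at 0.81. For Tbx18 the nearest was Lrrn2 at 0.77, for Meis1 Cped1 at 0.88, for Meis2 Sparc at 0.88 and for Ebf1 Mill2 at 0.91. The sums of a sample share a library and its depth, so these values describe likeness and are no test.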

How the data were processed

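The counts used here come from the matrix that the authors deposited as binarized values of 0 or 1 per nucleus and peak, with 1 where a fragment lies in the peak and no scaling for depth. A further 89197 stored zeros were read as closed. Per the labels and the methods, the authors processed snATAC-seq reads with Cell Ranger ATAC 1.1.0 on mm10, filtered barcodes, clustered nuclei with SnapATAC and Harmony, and called peaks with MACS2 in each cell type apart, on its nuclei pooled over samples, and merged them. The other deposited columns hold peak positions in bp and the sample and cluster of each nucleus. Samples were read from the deposited metadata, and 0 columns of other samples were left aside. Nuclei are not replicates, so open calls were summed per sample and cluster, with at least 20 nuclei in each sum.

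The 8 genes, the gene lists and the comparisons were chosen with earlier results of these data known. Genes and windows come from GENCODE M21. Sums were fitted over all peaks or all protein-coding genes in R 4.3.3 with edgeR 4.0.16 (TMM factors, the filterByExpr filter at a count of 10 and a total of 15, and the quasi-likelihood test, with Benjamini-Hochberg adjustment over all tested features at 0.05). The SE was taken from the test, as the size of the log2 difference over the root of F. Stages were compared within a cluster in 2 against 3 samples. Clusters were compared with the library as a block, since the same library gives both. The fits were tested on simulated data with known changes. Ratios on 1 to 3 counts have exact 95% intervals, and these intervals and the limits for 0 cover counting error only. DESeq2 1.42.0 was an alternative, as were its size factors, no filter, thinning to 1000 open peaks (nuclei with fewer left out), a minimum of 50 nuclei, each stage fitted apart, windows of 2 kb on each side of every transcript start, whole peaks for motifs, with and without the replicate block, and each sample left out in turn. Leaving out nuclei with shared barcodes, and using P56 sample 1 as the only adult library, were chosen after seeing the data.

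Peaks were named by a fixed rule: the peak over the gene start, the window and the distal peak with the highest mean stromal share, and for each comparison the called peak with the largest change in each direction. Genes most like a member are the 3 with the highest Pearson's r, without genes within 200 kb of the member, and list examples are called genes with the lowest p. Shares, sequences and figures were made in Python 3.11.15 (scipy 1.17.1, matplotlib 3.10.9). Doublets were not searched for. The 664 nuclei outside the 13 clusters, the scRNA-seq and bulk ATAC-seq files and the embeddings were not used here, and 1 peak that the rule named is not reported here.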

Additional observations from a re-analysis of the deposited data

Results flagged for a closer look

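For 5 of the 8 genes the change with age differed between stroma 2 and stroma 1 by the test of that difference itself (edgeR quasi-likelihood test, adjusted over all genes), with stroma 2 above stroma 1 in each. The log2 difference between the changes was 1.37 for Pdgfra, 1.17 for Pdgfrb, 0.85 for Meis2, 0.46 for Ebf1 and 0.45 for Meis1. The last 2 were not called under most alternatives, with an adjusted p of 0.22 for Ebf1 and 0.23 for Meis1 by DESeq2. Meis2 was not called under 2 of 13 alternatives and Pdgfrb under 1. The value of Pdgfrb ran from 0.59 to 1.47 over them. For Pdgfra and Pdgfrb every adult sample lay below the P0 samples in stroma 1 and above them in stroma 2. How many of all genes separate in this way was not counted.

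The same test called 15 member peaks, where 6.61% of all tested peaks were called in this direction, and 8 of the 15 are among the peaks named by the rule. In Pdgfra these were the start peak at 3.09, the peak 3401 bp upstream at 2.85 and the peak 4248 bp downstream at 0.84, and in Pdgfrb the intron peaks 9711 and 25883 bp downstream at 1.49 and 2.89. In Meis2 they were the start peak at 0.80 and the distal peak 205542 bp downstream at 2.53. The median over all tested peaks was 0.25 in this test, so an unchanged peak is not at 0. The Meis1 peak 4758 bp upstream had a fitted value of 7.33 ± 2.12, which is no measure of size, because none of the 298 adult stroma 1 nuclei had it open. The Pdgfra start and upstream peaks and the Pdgfrb peak 25883 bp downstream were each open in 3 adult stroma 1 nuclei and passed the filter on low counts through the other groups, so their values are given as descriptions. In adult stroma 1 the levels of proximal tubule, loop of Henle and endothelial markers and of Slc12a3 were above those at P0. Those of nephron progenitor, podocyte and collecting duct markers were below. The part of these levels in the differences was not tested.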

How the results depend on the processing

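No value changed sign as a call under any alternative that was run. The shares of all genes and peaks called are given for the main fit only. Counts under an alternative, here and above, are thus not set against all features. Among the values of single genes, 443 kept their side of the threshold, 45 lost it and 3 gained it under the alternatives that keep all libraries, and 310, 45 and 5 did when 1 library was left out. With age in stroma 1, the 8 genes called became 5 with DESeq2, 4 after thinning and 2 with 1 adult library, and 2 to 7 without 1 library, and the 15 peaks became 73 with no filter, 5 with 1 adult library and 8 to 38 without 1 library. After thinning no member peak in stroma 1 could be tested for age. In stroma 2 the 2 genes became 1 with the promoter window (2 kb on each side of every transcript start) and 1 to 5 without 1 library, and the 33 peaks became 20 with DESeq2, 63 with no filter, 8 after thinning and 15 to 57. Between the clusters at P0 the 5 genes became 1 with DESeq2, 0 after thinning, 1 without the replicate block, 3 with the promoter window and 1 to 5 without 1 library, and the 43 peaks became 13 with DESeq2, 2 after thinning, 75 with each stage fitted apart, 67 with 1 adult library and 14 to 56. In adults the 4 genes became 2 after thinning and 3 to 4 without 1 library, and the 28 peaks became 11 with DESeq2, 3 after thinning, 9 with each stage fitted apart, 10 with 1 adult library and 14 to 22. For the change in the cluster difference, the 5 genes became 3 with DESeq2, 2 after thinning, 3 without the replicate block, 2 with the promoter window, 3 with 1 adult library and 2 to 4 without 1 library. The 15 peaks became 4 with DESeq2, 1 after thinning, 4 with 1 adult library and 7 to 10. In whole peaks, CATCTG was in 99 member peaks in place of 68, TGACAG in 100 in place of 77 and GTAAACA in 21 in place of 12, as longer sequences were searched. Otherwise the cause was not tested.

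Samples with the same number at P0 and P56 share only that number. Their deviations correlated at 0.118 in stroma 1 and 0.176 in stroma 2 over genes, and with the replicate number as a block 7 genes and 29 peaks were called for age in stroma 1 and in stroma 2, respectively, in place of 8 and 33. Adult stroma 1 sums hold 90 to 107 nuclei, so peaks open in few nuclei carry a large counting error there.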
